A study of Homo sapiens with 6 samples.

Results

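The BCL2 family was followed here through 10 of its genes in irradiated HCT116 cells, a human colorectal carcinoma line of epithelial origin. The members were picked by symbol: the anti-apoptotic BCL2, BCL2L1 and MCL1, the effectors BAX and BAK1, and the BH3-only genes BID, BAD, BBC3, PMAIP1 and BCL2L11. All 10 were among the 20020 genes of the count table, and all 10 were among the 12925 genes that passed the filter on low counts. The RNA came from 3 CAD-KO+IR libraries, made from cells whose nuclease CAD had been knocked out through a lentiviral CRISPR vector, and from 3 sgVec+IR libraries, made from cells that carried the vector control. Every library was from irradiated cells, harvested 24 h after 8 Gy, and no unirradiated library was analysed here, so that the response to irradiation itself was not measured. The knockout was carried by a stable line, and the sources used here do not say whether that line was a clone or whether the 3 libraries of a group came from separate cultures. The p-values therefore measure the spread between these libraries, which may be technical.

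BCL2 family proteins decide whether the mitochondrial outer membrane stays sealed. BAX and BAK1 open it and let cytochrome c out, which starts the caspase cascade, and the anti-apoptotic proteins hold them back. BH3-only proteins carry the death signal: they bind the anti-apoptotic members, and some of them also activate BAX and BAK1 directly. After DNA damage p53 raises the transcription of BBC3, PMAIP1 and BAX, and CAD, encoded by DFFB, cuts chromosomal DNA downstream of the caspases once its inhibitor ICAD, encoded by DFFA, has been cleaved.

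No member was called in CAD-KO+IR against sgVec+IR. A call needed a Benjamini-Hochberg adjusted p under 0.05 in edgeR's quasi-likelihood test together with a change of at least 1.5-fold, and 0.0309% of all genes tested (4 of 12925) met this rule. Of the 10 members, 0 were called by edgeR, 0 had an unadjusted p under 0.05 (2.85% of all genes did), and 0 were called by DESeq2 or by limma-voom. The CAD-KO+IR and sgVec+IR libraries overlapped for every member, whereas 10.2% of all genes tested had groups that did not overlap (5.23% higher and 5.01% lower in CAD-KO+IR). The log2 fold change was above 0 for 4 members and below 0 for 6, with a median of -0.10, beside -0.01 over all genes tested, of which 51.9% lay below 0. In bulk RNA of a cell line, fewer cells in a given state and less RNA per cell cannot be told apart.

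The libraries themselves limited this comparison. Total counts ran from 14032994 to 19574144 per library. The members together took between 0.0736% and 0.0901% of them. The libraries labelled CAD-KO+IR 2 and sgVec+IR 3 stood apart from their groups: log2 CPM (read counts scaled to a common library size by TMM) of sgVec+IR 3 correlated at 0.890 and 0.886 with its group mates, which correlated with each other at 0.993, and CAD-KO+IR 2 at 0.969 and 0.975 where its mates reached 0.993. With CAD-KO+IR 1 to 3, sgVec+IR 3 correlated at 0.893, 0.927 and 0.901, each higher than with its own group mates. Genes without any read numbered 7561 in sgVec+IR 3 and between 4577 and 5232 elsewhere. DFFB, the targeted gene, had 185, 192 and 217 reads in CAD-KO+IR 1 to 3 and 357, 335 and 297 in sgVec+IR 1 to 3, a log2 fold change of -1.02 ± 0.193 (SE), with an adjusted p of 0.550 in edgeR and 0.000458 in DESeq2. DFFA was at 173 ± 3.48 CPM and 169 ± 7.98 CPM (SD, n = 3). The epithelial markers EPCAM, KRT8, KRT18, KRT19 and CDH1 all passed the filter, and their summed level was lowest in the libraries that stood apart, at 2751 CPM in CAD-KO+IR 2 and 2073 CPM in sgVec+IR 3 against 3651 to 4007 CPM in the others. The 5 leukocyte markers summed to at most 1.16 CPM in any library, with CD3E at 0 reads in all 6. Endothelial markers summed to 1.002 to 2.22 CPM in CAD-KO+IR and 4.16 to 6.07 CPM in sgVec+IR, mostly from VWF with 13 to 25 and 40 to 73 reads, and fibroblast markers to 25.9 to 39.8 and 12.0 to 48.9 CPM, nearly all from COL1A1. The part of these lists in the results was not tested.

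BBC3 and PMAIP1 differ in base composition and lay at opposite ends of the members' shift in the libraries that stood apart, BBC3 lowest and PMAIP1 highest against their group mates. The coding sequence of each is shown from its start codon over the same length, taken from GENCODE 29 transcripts on GRCh38 with G and C in capitals. The BBC3 stretch lies in exon 2 of the principal transcript, at chr19:47228267-47228431 on the minus strand, and 81.2% of its 165 bases are G or C. The PMAIP1 stretch is its whole coding sequence, at chr18:59900178-59900235 in exon 1 and chr18:59902647-59902753 in exon 2 on the plus strand, with 53.9% G or C. These genes and this length were chosen after their values were seen.
BBC3: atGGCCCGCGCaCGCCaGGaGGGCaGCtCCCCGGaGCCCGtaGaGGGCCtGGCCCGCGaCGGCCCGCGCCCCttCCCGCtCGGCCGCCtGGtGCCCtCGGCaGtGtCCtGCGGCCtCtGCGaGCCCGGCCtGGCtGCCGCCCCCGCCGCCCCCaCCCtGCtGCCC
PMAIP1: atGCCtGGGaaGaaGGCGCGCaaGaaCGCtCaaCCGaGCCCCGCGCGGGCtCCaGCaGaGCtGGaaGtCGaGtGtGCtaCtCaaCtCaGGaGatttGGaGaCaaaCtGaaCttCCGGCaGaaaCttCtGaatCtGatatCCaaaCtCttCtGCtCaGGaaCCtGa

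Among the anti-apoptotic genes, MCL1, a short-lived protein that sequesters BAK1 and several BH3-only proteins, had the highest level. MCL1 (chr1:150574551-150579738, minus strand) was at 298, 312 and 280 CPM in CAD-KO+IR 1 to 3 and at 312, 297 and 350 CPM in sgVec+IR 1 to 3. The groups overlapped closely and MCL1 had the narrowest interval of the 10 members, with a log2 fold change of -0.11 ± 0.138 (SE) and a 95% interval from -0.43 to 0.22 (adjusted p = 0.9999 in edgeR). BCL2L1 (chr20:31664452-31723989, minus strand), which encodes BCL-XL, was at 175, 112 and 165 CPM in CAD-KO+IR and at 156, 153 and 75.5 CPM in sgVec+IR. Its lowest value in each group was that of the library that stood apart, and its log2 fold change was 0.23 ± 0.318 (SE), with an interval from -0.52 to 0.98. BCL2 (chr18:63123346-63320128, minus strand), the founding member of the family, was barely counted, at 113, 99 and 74 reads in CAD-KO+IR and 84, 60 and 11 reads in sgVec+IR. The log2 fold change of 0.61 ± 0.521 (SE) was the largest in size of the 10 members. It rested on the 11 reads of sgVec+IR 3, since without that library and CAD-KO+IR 2 it was 0.16 ± 0.233 (SE).

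The effectors were both lower on average in CAD-KO+IR, without passing the test. BAX (chr19:48954815-48961798, plus strand) was at 103, 60.7 and 94.5 CPM in CAD-KO+IR and at 133, 134 and 37.9 CPM in sgVec+IR. All 3 knockout libraries lay below sgVec+IR 1 and 2 and all 3 lay above sgVec+IR 3. The log2 fold change was -0.24 ± 0.469 (SE), with an interval from -1.35 to 0.87. BAK1 (chr6:33572547-33580293, minus strand), the other pore-forming protein, was at 37.2, 22.9 and 36.0 CPM in CAD-KO+IR and at 40.6, 39.2 and 23.3 CPM in sgVec+IR, with a log2 fold change of -0.10 ± 0.294 (SE).

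Of the BH3-only genes, BBC3 and PMAIP1 showed the widest spread within a group. BBC3 (chr19:47220822-47232766, minus strand), which encodes PUMA and binds every anti-apoptotic member, was at 47.1, 18.4 and 41.7 CPM in CAD-KO+IR and at 63.0, 68.0 and 8.89 CPM in sgVec+IR. The values of sgVec+IR therefore spanned those of CAD-KO+IR on both sides, and the log2 fold change of -0.39 ± 0.683 (SE) had an interval from -2.005 to 1.23. PMAIP1 (chr18:59899948-59904306, plus strand), which encodes NOXA and binds MCL1, was at 98.8, 153 and 118 CPM in CAD-KO+IR and at 100, 100 and 217 CPM in sgVec+IR. Here the libraries that stood apart were the highest of their groups, the reverse of BBC3, and the log2 fold change was -0.17 ± 0.347 (SE). BID (chr22:17734138-17774770, minus strand), which links death receptors to mitochondria after caspase cleavage, was at 58.1, 45.3 and 51.8 CPM in CAD-KO+IR and at 64.2, 64.9 and 41.0 CPM in sgVec+IR, and its log2 fold change was -0.13 ± 0.231 (SE). BCL2L11 (chr2:111119378-111168447, plus strand), which encodes BIM, was at 21.8, 28.2 and 23.4 CPM in CAD-KO+IR and at 20.6, 21.2 and 25.1 CPM in sgVec+IR, a log2 fold change of 0.14 ± 0.197 (SE). BAD (chr11:64269830-64284704, minus strand), whose binding to BCL-XL is switched off by phosphorylation, had only 83, 45 and 67 reads in CAD-KO+IR and 69, 54 and 34 in sgVec+IR, a log2 fold change of 0.04 ± 0.369 (SE). For BAD, 404 exonic bases are shared with GPR137 on the other strand, and as the strand setting of the counting is not stated, reads of the pair cannot be told apart. GPR137 is in the count table, but the genes that overlap other members are not. BCL2L1 shares 1424 exonic bases with the antisense RNA ABALON, BCL2L11 727 with MIR4435-2HG and BAK1 91 with the pseudogene GGNBP1. BBC3 shares 80 with MIR3190 and 76 with MIR3191, and MCL1 shares 2 with ADAMTSL4-AS1. Reads over these bases cannot be traced to a gene either.

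**Figure D1:**
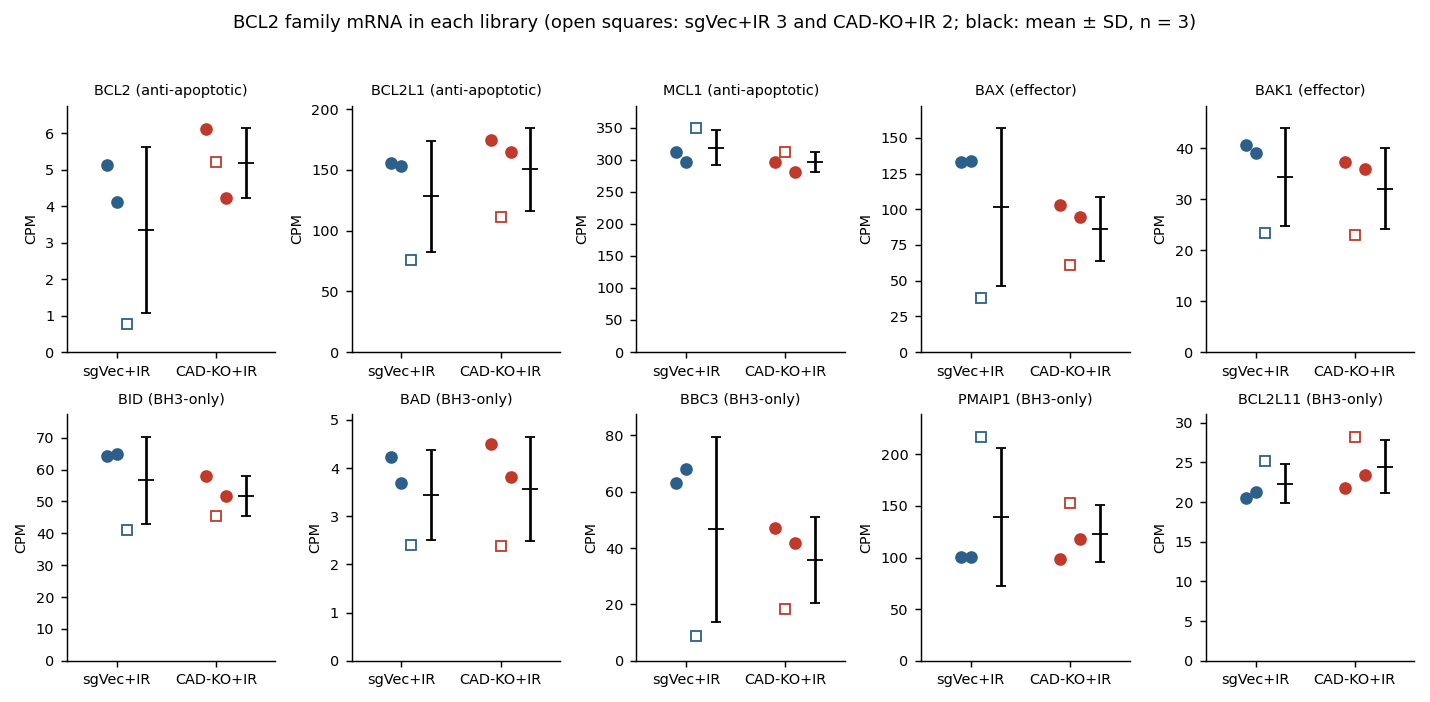
Level of each BCL2 family member in CPM (linear axes from 0) in the 3 sgVec+IR (blue) and 3 CAD-KO+IR (red) libraries, with the group mean ± SD in black and the libraries sgVec+IR 3 and CAD-KO+IR 2 as open squares. The groups overlap in every panel, and the open squares are the lowest points of their groups for BCL2L1, BAX, BAK1, BID, BAD and BBC3 and the highest for MCL1, PMAIP1 and BCL2L11.

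Per kilobase of annotated exon, which allows levels of different genes to be compared, the mean level over the 6 libraries was highest for MCL1 (70.5 CPM per kb), then PMAIP1 (58.7), BCL2L1 (42.0) and BAX (36.3). BAK1 (15.01 CPM per kb), BBC3 (13.0) and BID (12.2) followed, and BCL2L11 (3.51), BAD (2.05) and BCL2 (0.362) came last. From MCL1 down to BID the ranges of neighbours in this order overlapped, for example 64.2 to 80.0 CPM per kb for MCL1 and 44.2 to 97.0 for PMAIP1. The ranges of BID (9.22 to 14.6), BCL2L11 (3.09 to 4.24), BAD (1.39 to 2.63) and BCL2 (0.0659 to 0.521) did not overlap with each other. Among the anti-apoptotic members followed here, MCL1 and BCL2L1 thus supplied nearly all of the counted mRNA, and homologues outside the members were left out of this comparison. The lengths were those of all annotated exons, used in these cells or not.

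The distance of the members from their group mates was related to transcript GC content, with BCL2 and BAD as the clearest exceptions in sgVec+IR 3. In CAD-KO+IR 2 against the mean of CAD-KO+IR 1 and 3, BBC3 (64.5% GC) differed by -1.26 on the log2 CPM scale, BAD (65.2%) by -0.77, BAX (60.4%) by -0.70, BAK1 (58.7%) by -0.67 and BCL2L1 (56.2%) by -0.61. At the other end PMAIP1 (43.6%) differed by 0.50, BCL2L11 (46.8%) by 0.32 and MCL1 (45.7%) by 0.11, with BID (51.6%) at -0.28 and BCL2 (45.7%) at 0.04. Thus the GC-rich effector and BH3-only genes were low and PMAIP1 was high in the same library. In sgVec+IR 3 against sgVec+IR 1 and 2, the difference was -2.86 for BBC3, -1.81 for BAX, -1.03 for BCL2L1, -0.77 for BAK1, -0.69 for BAD and -0.65 for BID, and it was 1.11 for PMAIP1, 0.26 for BCL2L11 and 0.20 for MCL1. BCL2 departed from the order, at -2.40 in that library. So did BAD, which had the highest GC content of the members but only -0.69, where the median of genes with at least 60% GC was -1.44. Over the 10 members, which share both libraries, Pearson's r of the difference with transcript GC content was -0.952 in CAD-KO+IR 2 and -0.553 in sgVec+IR 3, beside -0.773 and -0.621 over 12913 genes. With GC content of the coding sequence alone, where BCL2 stands at 65.8% and MCL1 at 61.0%, r over the members was -0.710 and -0.777. This was weaker in CAD-KO+IR 2 and stronger in sgVec+IR 3 than with transcript GC content. It was computed for the 10 members only, so no value over all genes stands beside it. What the libraries differed in was not tested.

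**Figure D2:**
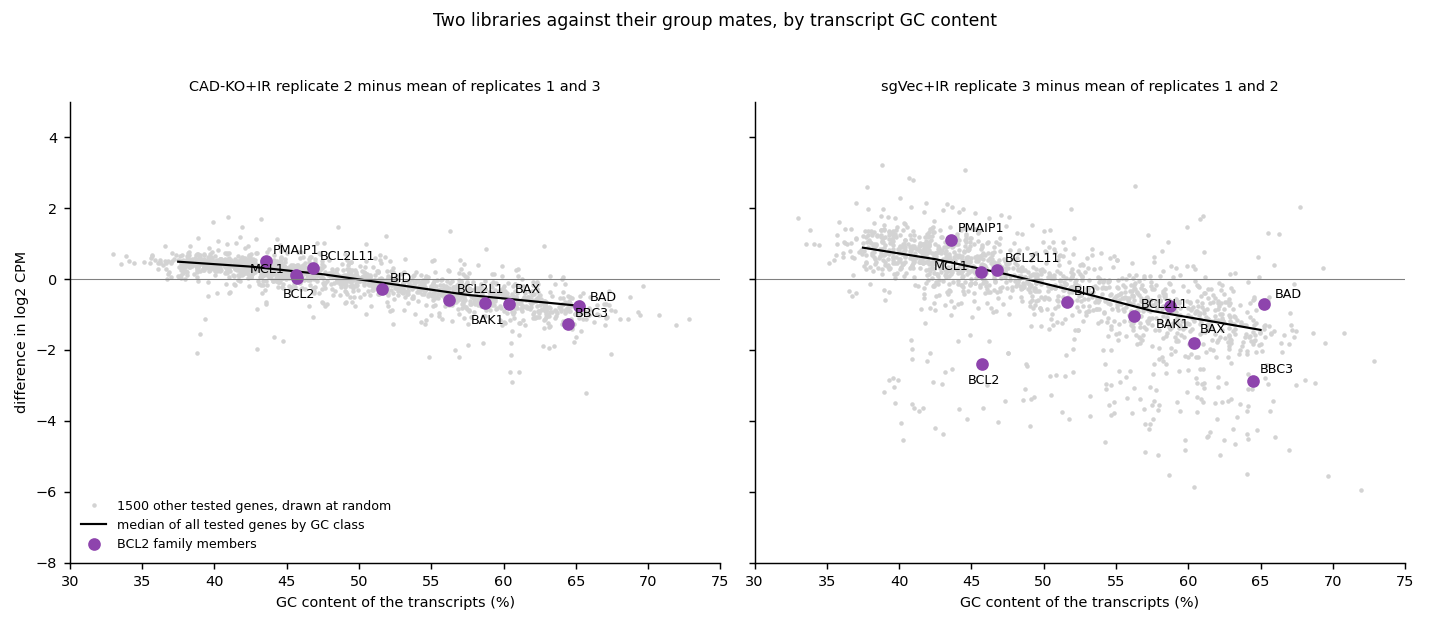
Difference in log2 CPM of CAD-KO+IR 2 (left) and sgVec+IR 3 (right) from the mean of their group mates, against the GC content of each gene's transcripts, for the 10 members (purple), 1500 tested genes drawn at random, BCL2L1 among them (grey), and the median of all genes by GC class (line). PMAIP1 is the highest and BBC3 the lowest of the members on both sides, BBC3 at -1.26 on the left and -2.86 on the right, while BCL2 at 45.7% GC lies at 0.04 on the left and at -2.40 on the right.

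BAX, BBC3 and BID were lower in CAD-KO+IR once the libraries that stood apart were set aside, an alternative chosen after seeing the data. That fit held 2 libraries against 2, and those left out lay farthest from their group mates. The spread that its p-values measure was narrowed by this choice, here and wherever the fit is given. With CAD-KO+IR 1 and 3 against sgVec+IR 1 and 2, BBC3 had a log2 fold change of -0.55 ± 0.085 (SE, edgeR adjusted p = 2.44e-06), BAX one of -0.43 ± 0.068 (adjusted p = 4.46e-06) and BID one of -0.23 ± 0.081 (adjusted p = 0.0477). These 3 of 10 members, all lower, stand beside 16.2% of all genes with an adjusted p under 0.05 in that fit, 8.25% of all genes as lower and 7.99% as higher. None of the 3 reached 1.5-fold, so that 0 members were called where 3.37% of all genes were. The other 7 members lay between -0.12 for BAK1 and 0.16 for BCL2, BCL2L1 had 0.14 ± 0.063 (adjusted p = 0.117), and PMAIP1 turned to 0.12 ± 0.074 (adjusted p = 0.294).

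The same 3 genes had an adjusted p under 0.05 when limma-voom weighted each library by its fit, at weights of 0.154 for CAD-KO+IR 2 and 0.0404 for sgVec+IR 3 against 1.79 to 6.75 for the others. These weights too lowered the part of the libraries farthest from their group mates. BBC3 was then called, at -0.62 (adjusted p = 0.00709), and BAX was at -0.47 (adjusted p = 0.00349) and BID at -0.28 (adjusted p = 0.0164), where 22.3% of all genes had an adjusted p under 0.05 (11.8% as lower) and 5.15% were called (3.51% as lower). With all 6 libraries and each library's trend on GC content removed, another alternative chosen after seeing the data, the values were smaller: -0.22 ± 0.322 for BBC3 (adjusted p = 0.822), -0.15 ± 0.171 for BAX (adjusted p = 0.778) and -0.14 ± 0.135 for BID (adjusted p = 0.744). In that fit 0 members were called beside 0.34% of all genes, and the groups of all 10 members overlapped where 21.1% of all genes had groups that did not (10.1% lower). Removal of the GC trend still left sgVec+IR 3 below sgVec+IR 1 and 2 for these 3 genes. On the log2 CPM scale it was at 4.18 against 5.51 and 5.59 for BBC3. For BAX it was at 6.01 against 6.70 and 6.68, and for BID at 5.52 against 5.93 and 5.93. The lower levels of BAX, BBC3 and BID thus had an adjusted p under 0.05 in 2 of the 16 alternatives run, those in which CAD-KO+IR 2 and sgVec+IR 3 counted little or not at all. Leaving out sgVec+IR 3 alone gave -0.87 for BBC3 (unadjusted p = 0.0335, adjusted p = 0.407) and -0.63 for BAX (unadjusted p = 0.0207, adjusted p = 0.400) in edgeR, leaving out CAD-KO+IR 2 alone gave -0.07 and -0.04, and leaving out sgVec+IR 1 or sgVec+IR 2 turned BAX to 0.0064 and 0.011.

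**Figure D3:**
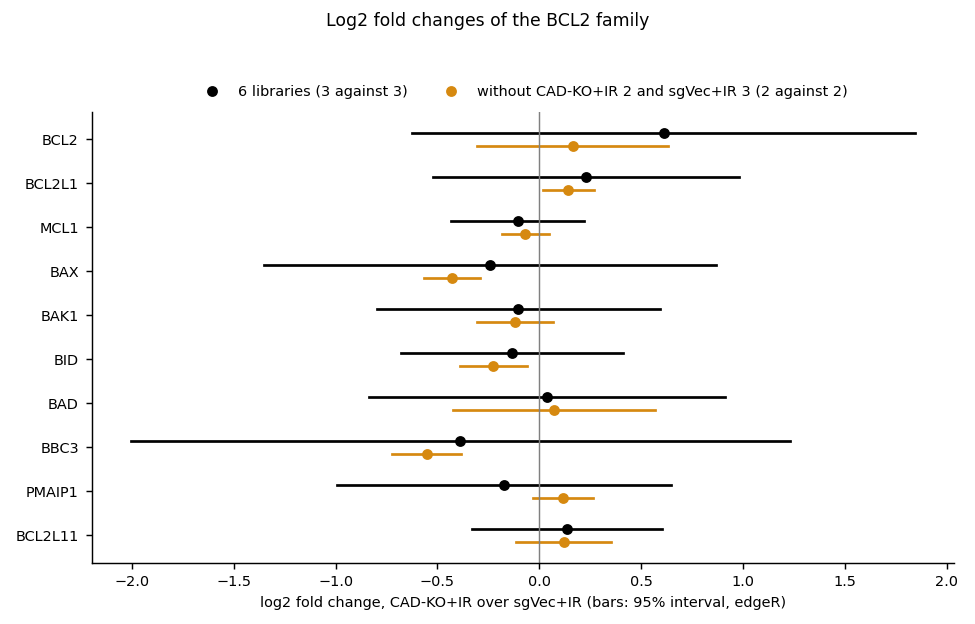
Log2 fold change of each member in CAD-KO+IR over sgVec+IR with its 95% interval (edgeR), from all 6 libraries (black) and without CAD-KO+IR 2 and sgVec+IR 3 (orange). All black intervals cross 0, and of the orange ones those of BAX, BBC3 and BID lie below 0 and that of BCL2L1 lies above it. The orange fit left out the libraries farthest from their group mates, so its intervals do not hold their spread.

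Ratios between members within a library, in which the scaling of the library cancels, set a pro-apoptotic gene over an anti-apoptotic one, or, in the case of MCL1 to BCL2L1, an anti-apoptotic gene over another. A shift related to GC content need not cancel where the genes of a pair differ in it. BAX (60.4% GC) and BCL2 (45.7%) differ more than BAK1 (58.7%) and BCL2L1 (56.2%) do. The part of GC content in the ratios was not tested. Of 9 ratios of read counts, 2 had groups that did not overlap. The log2 ratio of BAX to BCL2 was 4.07, 3.54 and 4.49 in CAD-KO+IR 1 to 3 and 4.70, 5.02 and 5.61 in sgVec+IR 1 to 3, a difference of means of -1.08 (4.03 ± 0.475 against 5.11 ± 0.462, SD, n = 3) that was -0.58 without CAD-KO+IR 2 and sgVec+IR 3. The log2 ratio of BAK1 to BCL2L1 was -2.23, -2.28 and -2.20 in CAD-KO+IR and -1.94, -1.97 and -1.70 in sgVec+IR, a difference of -0.37 (-2.24 ± 0.043 against -1.87 ± 0.149) that was -0.26 without those libraries. Both ratios were lower in every knockout library. For comparison, groups did not overlap for 12.4% of 12108 genes set over BCL2 and for 13.4% set over BCL2L1, and the ratio to BCL2 rested on 11 to 113 reads of BCL2. With 3 libraries against 3, an exact two-sided permutation test cannot give a p under 0.1, and no test was made.

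The ratio of BAX to BCL2L1 overlapped through sgVec+IR 3 alone: it was -0.76, -0.88 and -0.80 in CAD-KO+IR and -0.22, -0.20 and -0.99 in sgVec+IR. The ratio of BBC3 to MCL1 was -2.66, -4.08 and -2.75 in CAD-KO+IR and -2.31, -2.13 and -5.30 in sgVec+IR, and the ratio of PMAIP1 to MCL1 was -1.59, -1.03 and -1.24 against -1.64, -1.56 and -0.69. These ratios were widest apart within sgVec+IR, between replicate 3 and its mates, and the difference of means was 0.079 for BBC3 to MCL1 and 0.0066 for PMAIP1 to MCL1. Without CAD-KO+IR 2 and sgVec+IR 3 the differences were -0.57 for BAX to BCL2L1, -0.49 for BBC3 to MCL1 and 0.18 for PMAIP1 to MCL1. The remaining ratios (BAX to MCL1, BAK1 to MCL1, BCL2L11 to BCL2 and MCL1 to BCL2L1) had overlapping groups. The difference of -0.88 for BCL2L11 to BCL2 was -0.032 without CAD-KO+IR 2 and sgVec+IR 3 and ran from -1.45 to 0.062 when 1 library was left out. BAX to MCL1 went from 0.041 to -0.36 without those libraries, BAK1 to MCL1 from 0.015 to -0.049 and MCL1 to BCL2L1 from -0.38 to -0.21.

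**Figure D4:**
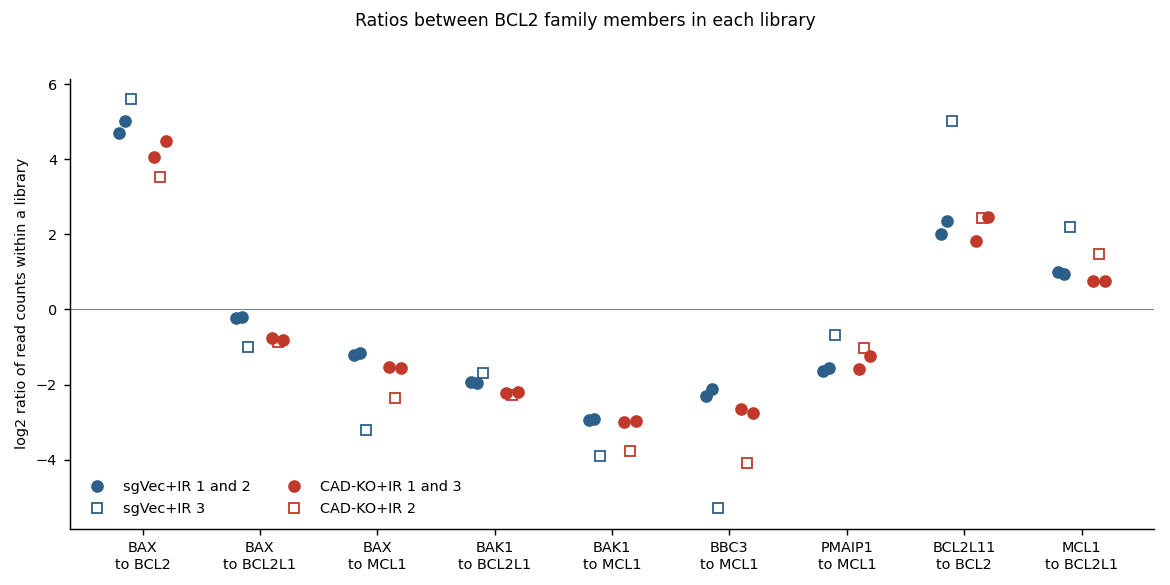
Log2 ratio of the read counts of 2 members within each library, for 9 pairs, in sgVec+IR (blue) and CAD-KO+IR (red), with the libraries sgVec+IR 3 and CAD-KO+IR 2 as open squares. The red points lie below all blue points for BAX to BCL2 and for BAK1 to BCL2L1, and the open blue square lies farthest from its group for BBC3 to MCL1, at -5.30.

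Of the other homologues and BH3-only genes, 5 of 7 passed the filter, 3 with a log2 fold change above 0 and 2 below (median 0.20), and 0 had an unadjusted p under 0.05. BMF, a BH3-only gene, had 0.93 ± 0.866 (SE) at 0.760 ± 0.347 against 0.391 ± 0.353 CPM (SD, n = 3), and HRK, another, had 0.64 ± 0.696. Both had 0 reads in sgVec+IR 3, and without that library and CAD-KO+IR 2 BMF was at 0.47 and HRK at 0.14. Of 7 genes tested with partial homology to BCL2, 4 were higher and 3 lower, with 1 unadjusted p under 0.05. This was BCL2L15, with 43, 33 and 47 reads in CAD-KO+IR and 16, 14 and 0 in sgVec+IR, at a log2 fold change of 1.75 ± 0.664 (unadjusted p = 0.0329, adjusted p = 0.9999 in edgeR). Without CAD-KO+IR 2 and sgVec+IR 3 BCL2L15 was called, at 1.37 (adjusted p = 0.0112), and it was called with sample weights, at 1.40 (adjusted p = 0.00506). BNIP3L, a mitophagy receptor, was at -0.30 ± 0.221 in all 6 libraries, and had an adjusted p under 0.05 without those libraries, at -0.29 (adjusted p = 0.0363), and with sample weights, at -0.32 (adjusted p = 0.0164).

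Downstream of the family, 10 genes of the outer membrane and of release from the mitochondrion were tested, 2 higher and 8 lower (median -0.04), and 11 genes of the apoptosome, caspases and their inhibitors, 4 higher and 7 lower (median -0.01). None of these 21 genes had an unadjusted p under 0.05 in edgeR with all 6 libraries. DIABLO, which relieves caspases of their inhibitors, had 64, 65 and 55 reads in CAD-KO+IR and 43, 38 and 0 in sgVec+IR, and a log2 fold change of 0.91 ± 0.667 that was 0.34 without CAD-KO+IR 2 and sgVec+IR 3. HTRA2, a mitochondrial protease, had -0.32 ± 0.328, and APAF1, the scaffold of the apoptosome, had -0.34 ± 0.205. Without CAD-KO+IR 2 and sgVec+IR 3, 3 of these genes had an adjusted p under 0.05, none past 1.5-fold: APAF1 was lower, at -0.26 (adjusted p = 0.0247), and CYCS, which encodes cytochrome c, and XIAP, a caspase inhibitor, were higher, the latter genes named after their values were seen. These 3 of 21 genes stand beside 16.2% of all genes with an adjusted p under 0.05 in that fit. With sample weights 1 of the 10 genes of the membrane (higher) and 5 of the 11 of the apoptosome list (2 higher, 3 lower) had an adjusted p under 0.05. With those weights 22.3% of all genes did, 10.5% as higher and 11.8% as lower.

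Upstream, 15 of 16 genes that turn over or phosphorylate the proteins were tested, 8 higher and 7 lower (median 0.03), and 10 transcriptional regulators of BH3-only genes, 4 higher and 6 lower (median -0.06), again with 0 at an unadjusted p under 0.05 with all 6 libraries. Without CAD-KO+IR 2 and sgVec+IR 3, each of these lists had 1 gene higher and 1 lower at an adjusted p under 0.05. Of all genes, 7.99% were higher and 8.25% lower at that threshold in the same fit. MARCHF5, a ubiquitin ligase of the mitochondrion, had -0.36 ± 0.288 (-0.13 without those libraries), and GSK3B, a kinase that marks MCL1 for degradation, -0.20 ± 0.282 (0.056). The immediate early factor EGR1 had 0.66 ± 0.352, and without those libraries 0.46 (adjusted p = 0.00141). FOXO1, a forkhead factor that can drive BCL2L11, had -0.37 ± 0.247 (-0.12 without those libraries), at 14.1 ± 0.527 CPM in CAD-KO+IR against 18.2 ± 5.19 CPM in sgVec+IR. The 11 other p53 death targets tested, of 13, were all below 0 (median -0.08), beside 51.9% of all genes, and 1 had an unadjusted p under 0.05. This was TP53INP1, a p53-induced nuclear protein, with 1617, 2225 and 1682 reads in CAD-KO+IR and 1992, 1955 and 3269 in sgVec+IR, 100 ± 15.3 against 162 ± 59.6 CPM, at -0.69 ± 0.278 (unadjusted p = 0.0414, adjusted p = 0.9999). It was called after removal of the GC trend, at -0.64 (adjusted p = 0.0226).

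TP53I3, also called PIG3, is a p53 target that codes for an oxidoreductase, and it was low in the same libraries as BBC3 and BAX. It had 413, 215 and 337 reads in CAD-KO+IR and 524, 541 and 79 in sgVec+IR, with a log2 fold change of -0.50 ± 0.610 in all 6 libraries. Without CAD-KO+IR 2 and sgVec+IR 3 it was called, at -0.72 ± 0.110 (adjusted p = 2.26e-06), where 7 of the 11 targets were lower and TP53INP1 and PIDD1 also had an adjusted p under 0.05. These 3 of 11, all lower, stand beside 8.25% of all genes lower in that fit.

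The genes whose log2 CPM was most like that of a member are given as a description over 6 libraries, of which CAD-KO+IR 2 and sgVec+IR 3 stood apart, and the part of those libraries was not tested. For BBC3 they were CLK3, CACNA1G and USF1 (Pearson's r = 0.9999, 0.9997 and 0.9995), with 314 genes above 0.99, for BAX they were STX5, B3GNT7 and PTPN6 (r = 0.9995, 0.9994 and 0.9989), with 200 above 0.99, and for MCL1 they were KLK8, IFTAP and PSMB1 (r = 0.994, 0.994 and 0.993), with 4 above 0.99.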

How the data were processed

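RNA was extracted with TRIzol from HCT116 cells and sequenced on an Illumina instrument. The sources used here describe fastp for read cleaning and featureCounts for counting, and the authors deposited raw counts per gene, which are not normalized. The submitters' processing notes name mm10, whereas the gene identifiers are human, and the build used for alignment is otherwise not given in the sources used here. The labels also list the molecule as genomic DNA, although they describe an mRNA library kit.

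Genes were filtered with filterByExpr (minimum count 10, minimum total 15), scaled by TMM and tested with edgeR 4.0.16 (glmQLFit, glmQLFTest) in R 4.3.3, without covariates, and p-values were adjusted by Benjamini-Hochberg over the 12925 genes tested. A call needed an adjusted p under 0.05 and at least 1.5-fold. SE was the log2 fold change over the root of F. CPM values used TMM-scaled library sizes of the genes tested, and log2 CPM a prior count of 2. DESeq2 1.42.0, limma 3.58.1 (voom, with and without sample weights), other scalings, no filter, the replicate block and leaving out each library were alternatives. The GC correction (lowess, span 0.3) and the omission of CAD-KO+IR 2 and sgVec+IR 3 were added after seeing the data. The edgeR, DESeq2 and limma-voom fits were tested on simulated counts in which no library stood apart. The GC correction was tested on simulated counts with a GC trend in sgVec+IR 3 alone. Neither setting matches these data.

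Coordinates, exon length and GC content came from GENCODE 29 (GRCh38), matched by Ensembl identifier for 19823 of 20020 genes. Lengths are unions of exons, and GC content is the length-weighted mean over a gene's transcripts. The named genes were the 10 members, DFFB, DFFA, in each pathway list the 2 with the largest absolute log2 fold change and up to 5 with an unadjusted p under 0.05, and the 3 genes most correlated with MCL1, BAX and BBC3. PIDD1, CYCS and XIAP were named after their values were seen, and 1 gene that the rule names is not reported here. Members, lists and alternatives were chosen with earlier results of these data known.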

Additional observations from a re-analysis of the deposited data

How the results depend on the processing

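The count of all genes called moved most. It was 4 in edgeR, 47 with DESeq2 (22 higher, 25 lower), 0 with limma-voom, 666 with sample weights, 0 with the replicate block, 44 with the GC correction, 440 without CAD-KO+IR 2 and sgVec+IR 3, 282 at an unadjusted p, and 0 to 22 when 1 library was left out. It reached 22 without sgVec+IR 3. Members called stayed at 0 except for 1 (BBC3) with sample weights. Genes called in the other lists went from 0 to 1 with DESeq2 (DFFB), 3 with sample weights (DFFB, TP53I3, BCL2L15), 2 with the GC correction (DFFB, TP53INP1), 3 without both libraries (DFFB, TP53I3, BCL2L15) and 3 at an unadjusted p. The cause was not tested.

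Over 16 alternatives MCL1, BID and BBC3 stayed below 0 and BCL2L11 stayed above it. Sample weights turned BCL2 to -0.0053, BAD to -0.018, PMAIP1 to 0.18, BMF to -0.021 and GSK3B to 0.055, and omission of both libraries turned PMAIP1 to 0.12 and GSK3B to 0.056. When 1 library was left out, log2 fold changes ran from -0.038 to 0.41 for BCL2L1, -0.63 to 0.011 for BAX, -0.32 to 0.092 for BAK1, -0.16 to 0.27 for BAD, -0.36 to 0.30 for PMAIP1, -0.38 to 0.16 for GSK3B and -0.0036 to 0.059 for DFFA.

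Whether equal numbers in the titles mark paired libraries could not be read from the values. Deviations from the group mean correlated at 0.468, -0.545 and -0.379 for equal numbers, and CAD-KO+IR 2 and sgVec+IR 3 at 0.552. A library that stands apart weighs on the deviations of its whole group, so these correlations can neither show nor exclude pairing. With the replicate block 0 members were called. BCL2 and BAD had the fewest reads of the members, 11 to 113 per library, and the part of depth in their spread was not tested.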
